A study of Mus musculus with 18 samples.

Results

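The genes described here are 39 mouse genes of the antioxidant and NRF2 response, chosen as a named list of regulators, targets and related enzymes, and read across the 6 groups of an RNA-Seq series of bone marrow-derived macrophages (BMDMs). All 39 were among the 22852 gene symbols counted, all had reads in every sample, and all were among the 11305 genes that passed the expression filter and were tested. The BMDMs came from female C57BL/6 mice whose age is not given in the sources used here, and were differentiated for 7 days in medium conditioned by L929 cells, a fibroblast line that secretes the macrophage growth factor M-CSF. Unstimulated BMDMs received neither LPS, the endotoxin of Gram-negative bacteria, nor carboplatin. Single LPS BMDMs received 10 ng/ml LPS without priming, for a time that is not given in the sources used here. LPS-primed BMDMs received 100 ng/ml LPS for 24 h. LPS-tolerant BMDMs received 100 ng/ml LPS for 24 h, then a change of medium and 10 ng/ml LPS for 3 h. LPS-primed carboplatin and LPS-tolerant carboplatin BMDMs were treated in the same way after 1 h of pretreatment with 25 µM carboplatin, a platinum drug that crosslinks DNA. The labels word the order of carboplatin and LPS the other way round, so the order rests on the methods of the study. Each group had 3 biological replicates, and no source used here says whether replicates of the same number came from the same mouse.

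NRF2, encoded by Nfe2l2, is a transcription factor that is made continuously and destroyed almost as fast, because KEAP1 carries it to the ubiquitin ligase that marks it for the proteasome. Electrophiles and oxidants modify cysteines of KEAP1, NRF2 escapes, pairs with a small MAF protein and binds antioxidant response elements in front of its target genes, while BACH1 can occupy the same elements as a repressor until heme displaces it. The targets supply glutathione and thioredoxin, reduce peroxides, conjugate and export reactive compounds, break down heme and make NADPH, and in macrophages they are known for limiting damage from the oxidants that the cells themselves release after contact with bacteria.

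The antioxidant response element has the core letters TGACNNNGC, where N is any base. This core was looked for on both strands of the RefSeq promoter windows of mouse build GRCm38.p6, which reach from 250 bases before to 50 bases after a transcription start. Windows were found for 34 members, and Abcc1, Gclc, Gsr, Hmox1 and Prdx6 had none. The core was present in 11 of the 34 members (32.4%), against 14% of the 27025 genes with a window and 12.4% of all 32851 windows. The AP-1 site, with the letters TGANTCA, was searched in the same windows and was present in 6 of the 34 members (17.6%), against 8.97% of genes. Shown next, each 5′ to 3′ on the strand of its gene, are the matches of the 7 members whose transcripts were higher than in unstimulated BMDMs after 24 h of LPS or after the single dose and whose match lay before or at the start, with the 9 bases of the core in capitals and 25 bases on either side where they lie before the start.
Gclm: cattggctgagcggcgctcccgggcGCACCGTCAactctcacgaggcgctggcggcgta
Maff: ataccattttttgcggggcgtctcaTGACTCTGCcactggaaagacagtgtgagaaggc
Mafg: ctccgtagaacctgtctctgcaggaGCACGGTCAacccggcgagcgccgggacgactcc
Me1: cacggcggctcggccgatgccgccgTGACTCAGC
Mgst1: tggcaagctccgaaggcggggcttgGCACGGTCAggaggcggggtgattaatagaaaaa
Prdx1: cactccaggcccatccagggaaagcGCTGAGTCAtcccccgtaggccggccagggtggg
Txnrd1: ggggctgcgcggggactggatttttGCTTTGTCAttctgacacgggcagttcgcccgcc
In the order shown, these stretches lie at chr3:122245398-122245456 on the plus strand, chr15:79346484-79346542 on the plus strand, chr11:120633736-120633794 on the minus strand, chr9:86695912-86695945 on the minus strand, chr6:138140446-138140504 on the plus strand, chr4:116685441-116685499 on the plus strand and chr10:82859089-82859147 on the plus strand, all in GRCm38.p6. In Mgst1 and Mafg the 9 core bases are the same. In Me1 and Prdx1 the match shares bases with an AP-1 match. The other 4 members with the core were Blvra, which fell after the single dose (match 49 bases before the start), Sod1, which fell with priming (56 before), Nfe2l2, which was not called without the replicate block described below (240 before), and Srxn1, which rose after the single dose (28 after the start). The stretches shown were thus selected by their calls and do not tie the core to a direction. A match describes letters in the window and does not show that a protein binds there.

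Between 6869667 and 14708099 read pairs per sample fell on genes, with a median of 8986463, and samples of one group differed by more than counting error. All 8 macrophage markers were detected in every group. They summed to 149000 to 169000 normalized counts in unstimulated and 142000 to 179000 in single LPS BMDMs. The sums were 274000 to 277000 in LPS-primed and 250000 to 305000 in LPS-tolerant BMDMs. With carboplatin they were 220000 to 267000 and 224000 to 282000 in those states. Single markers went either way with priming, as mean Itgam rose from 4892 to 27021 and mean Cd68 fell from 29054 to 15208. The 8 neutrophil markers summed to 8.18 to 15.6 normalized counts in unstimulated, 40.8 to 120 in single LPS, 84.3 to 438 in LPS-primed and 140 to 537 in LPS-tolerant BMDMs, and to 142 to 543 and 187 to 476 in the LPS-primed and LPS-tolerant carboplatin groups. Most of this was S100a8, while the defining neutrophil genes Ly6g and Mpo were at 0 in all 18 samples, as were the erythroid genes Alas2, Hbb-bs and Hbb-bt. The 4 fibroblast markers summed to 0 to 3.64 in unstimulated, 2.39 to 18.7 in single LPS, 27.5 to 64.7 in LPS-primed and 45.6 to 73.1 in LPS-tolerant BMDMs, and to 23 to 68.6 and 9.18 to 46.7 in the 2 carboplatin groups, with Dcn as the largest part after 24 h of LPS and Pdgfra at 0 in every group but single LPS. Of the 4 mast cell markers only Kit was detected, at 10.7 to 40.1 in unstimulated, 7.89 to 13.1 in single LPS and at most 2.06 in the other groups. Of the 5 B cell markers, Ighm was present in unstimulated BMDMs, where the summed markers ran from 267 to 1560 normalized counts, and the sum was 71.6 to 271 after the single dose and 0.94 to 12.7 in the 4 groups given LPS for 24 h, while Ms4a1 was at 0 in the unstimulated and LPS-primed samples. The 5 proliferation genes summed to 8410 to 13600 in unstimulated, 6230 to 13900 in single LPS, 1180 to 2090 in LPS-primed and 886 to 2460 in LPS-tolerant BMDMs, and to 674 to 979 and 629 to 988 in the 2 carboplatin groups. These values moved with the 24 h of LPS, and some also moved with the single dose or with carboplatin. Their part in the results below was not tested. In bulk RNA, fewer cells making a transcript and less of it per cell cannot be told apart.

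All values per sample are normalized counts, that is, counts scaled to a common library size by edgeR's TMM factors, in the order of replicates 1, 2 and 3. A member was called where the edgeR quasi-likelihood test gave a Benjamini-Hochberg adjusted p under 0.05 over all tested genes, with no limit on the log2 fold change (log2FC). The heatmap of all members shows a set that was high in all 4 groups given LPS for 24 h. A few rows, among them Mgst3 and Sod1, were low in those groups. Another set was highest or lowest after the single dose of LPS, and the rest showed little difference in color.

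**Figure D1:**
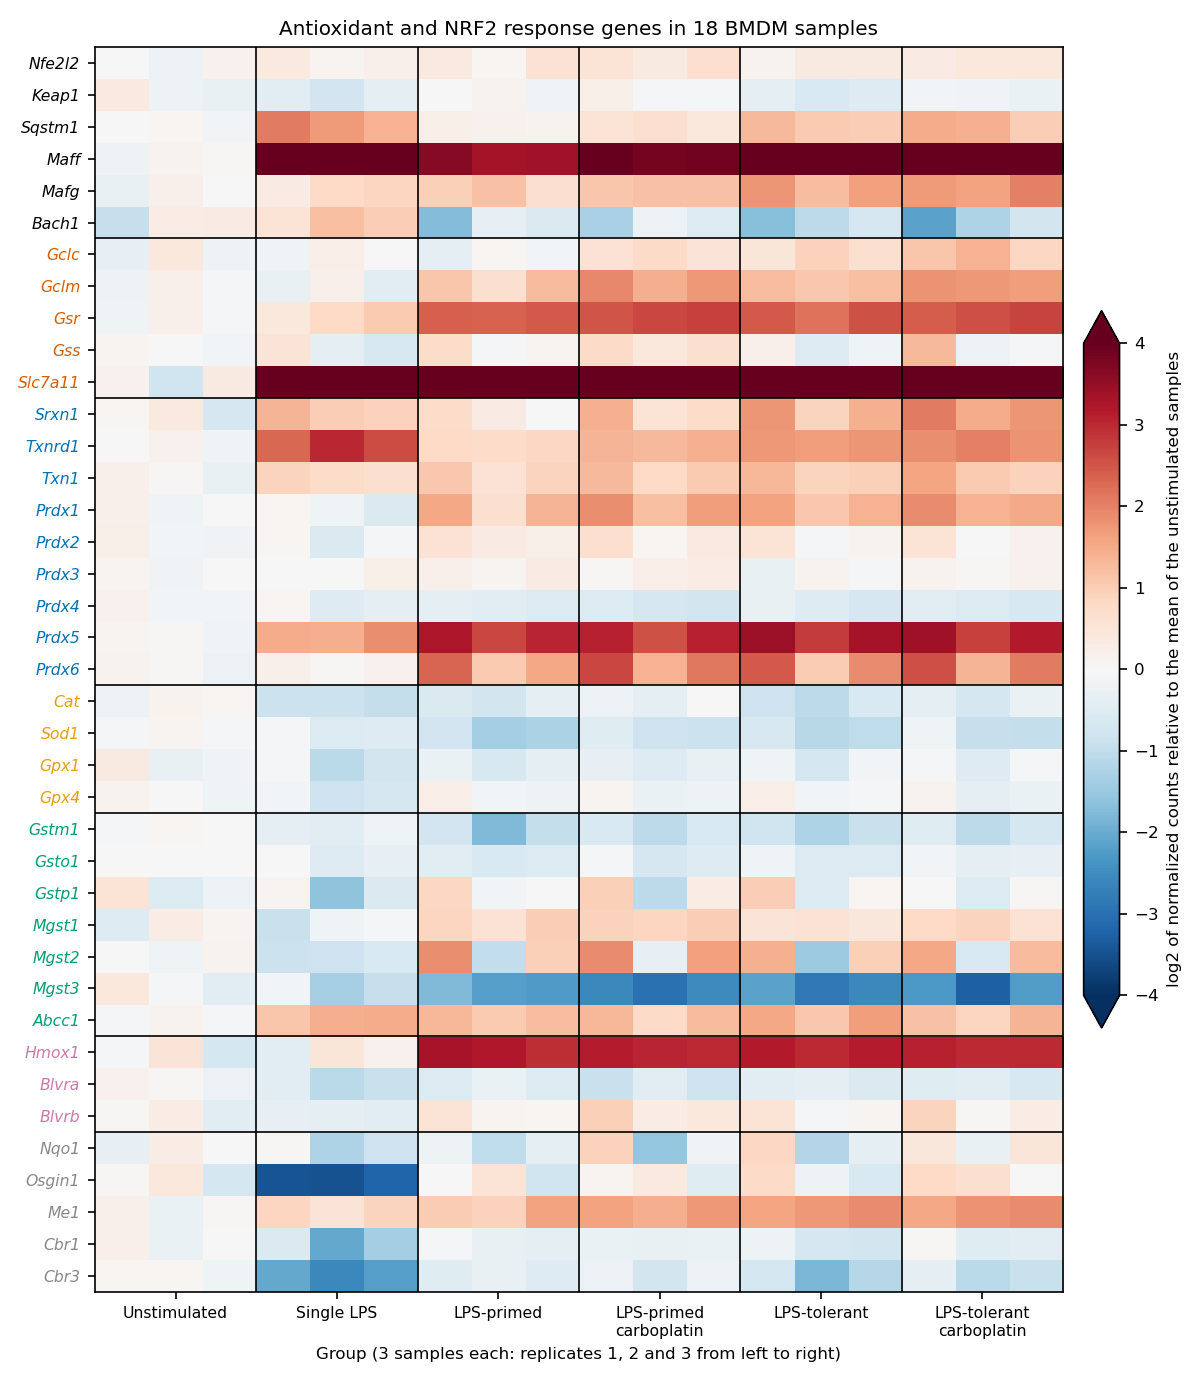
Heatmap of the 39 antioxidant and NRF2 response genes (rows) in the 18 samples (columns, 3 per group). Color gives log2 of the normalized count relative to the mean of the unstimulated samples, cut at 4 in either direction, and lines separate, from top to bottom, regulators, glutathione supply, thioredoxin and peroxiredoxins, superoxide and peroxide enzymes, glutathione transferases and export, heme breakdown, and quinone, carbonyl and NADPH enzymes and others. Hmox1, Prdx5, Gsr and Slc7a11 are red in all 12 samples given LPS for 24 h, while Sqstm1 and Txnrd1 are reddest and Osgin1, Cbr1 and Cbr3 bluest in the 3 single LPS samples.

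LPS priming for 24 h raised the heme-degrading enzyme Hmox1, the peroxiredoxins Prdx1, Prdx5 and Prdx6, the glutathione genes Slc7a11, Gclm and Gsr and the small MAF gene Maff, and lowered Mgst3, Sod1 and Gstm1 among others. Compared with unstimulated BMDMs, 14 of the 39 members were higher (35.9%) and 6 were lower (15.4%), where 12.1% of all tested genes were called higher and 13.1% lower. The median log2FC was 0.293 over the members and -0.0236 over all tested genes. The share of members called higher was thus above the background and the share called lower was near it. The list was chosen with earlier results of these data known, so here and below such shares only describe it. Without unstimulated replicate 2, the count of lower members was 3. Taking the replicate number as a block in the model, 16 members were higher and 9 lower, with 18.9% and 19.8% of all tested genes called. The 5 members called only in that fit were Nfe2l2 (adjusted p = 0.0198) and Prdx2 (0.0112), which were higher, and Gpx1 (0.027), Blvra (0.0177) and Bach1 (0.00157), which were lower.

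A single dose of 10 ng/ml LPS gave another list. It raised Slc7a11, Maff, the thioredoxin reductase gene Txnrd1, the autophagy receptor gene Sqstm1, Prdx5, Abcc1 and Srxn1, and it lowered Osgin1, Cbr3 and Cbr1, while Hmox1, Gclm, Prdx1 and Prdx6 did not pass the test. Compared with unstimulated BMDMs, 11 members were higher (28.2%) and 7 lower (17.9%), where 24.3% of all tested genes were called higher and 26.9% lower. Those shares were near the background for higher members and under it for lower ones. The median log2FC was -0.148 over the members and -0.0944 over all tested genes. Scaling by library size alone moved the median of all tested genes to -0.431, and 8 members were then higher and 16 lower, where 16.3% and 41% of all tested genes were called. With the block, 12 members were higher and 13 lower, against 29.5% and 33.8% of tested genes, and the added calls were Bach1, which was higher (adjusted p = 4.82e-05), and Gpx1 (0.00153), Mgst3 (0.0029), Sod1 (0.015), Gsto1 (0.026), Prdx4 (0.0454) and Gstp1 (0.0459), which were lower. Single LPS and LPS-primed BMDMs differ in dose, and their times may differ, and both comparisons use the same unstimulated samples, so their values are only set side by side.

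LPS-tolerant BMDMs carried more transcript of Hmox1, Osgin1, Prdx1, Prdx5, Prdx6, Gsr and Gclm than BMDMs that met the same 10 ng/ml of LPS without priming, and less of Bach1, Mgst3 and Maff. In this comparison 13 members were higher (33.3%) and 6 lower (15.4%), where 16.2% of all tested genes were called higher and 18.3% lower. The median log2FC was 0.387 over the members and 0.00258 over all tested genes. These groups may also differ in the time of the 10 ng/ml dose, which is not given for single LPS BMDMs. With the block, 20 members were higher and 7 lower, against 22.9% and 24.7% of tested genes. Txn1 (adjusted p = 0.0478), Prdx2 (0.00882), Gpx4 (0.00028), Gstp1 (0.00906), Mgst2 (0.0488), Blvrb (0.00788) and Cbr1 (0.00472) were higher and Sod1 (0.00225) was lower in the fit with the block alone.

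The second LPS dose itself, read as LPS-tolerant against LPS-primed BMDMs, raised Maff, Txnrd1, Sqstm1 and Gclc. These were the 4 members called higher (10.3%), and none was lower, where 3.6% of all tested genes were called higher and 2.71% lower. Of the 39 members, 10 had an unadjusted p under 0.05, as did 21.1% of all tested genes. DESeq2 called 7 members higher, adding Slc7a11, Srxn1 and Mafg, and none lower, where it called 5.41% and 4.11% of genes. With the block, 8 were higher and 2 lower, against 9.67% and 8.32% of tested genes. The added calls were Srxn1 (adjusted p = 0.00329), Slc7a11 (0.00755), Me1 (0.0219) and Mafg (0.0245), which were higher, and Cbr3 (0.0167) and Keap1 (0.0226), which were lower. Without LPS-tolerant replicate 1, 1 member was called lower. With scaling by library size alone 3 were higher and 1 lower, against 2.62% and 4.21% of tested genes. Counted by samples, 24 members did not overlap between LPS-primed and unstimulated BMDMs, 21 between single LPS and unstimulated, 21 between LPS-tolerant and single LPS and 8 between LPS-tolerant and LPS-primed BMDMs, where 39.4%, 55.7%, 44.2% and 26.2% of all tested genes did not. The second dose came with fresh medium and 3 more hours of culture, and these cannot be told apart.

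Calls at a log2FC beyond 1 narrowed the lists. With priming 10 members were higher and 3 lower at this limit, where 6.87% and 8.39% of all tested genes were. After the single dose 7 were higher and 3 lower, against 14.5% and 16.9% of genes, and in LPS-tolerant against single LPS BMDMs 9 were higher and 3 lower, against 8.91% and 11.2%. After the second dose 1 was higher, Maff, and none lower, against 1.73% and 1.6%. Beyond a log2FC of 2, the members with priming were Slc7a11, Maff, Hmox1, Prdx5 and Gsr, which rose, and Mgst3, which fell, where 7.47% of all tested genes passed in either direction. After the single dose they were Maff, Slc7a11 and Txnrd1, which rose, and Osgin1 and Cbr3, which fell (12% of genes), and in LPS-tolerant against single LPS BMDMs Osgin1 and Hmox1, which were higher, and Bach1, which was lower (8.04% of genes). No member passed that limit after the second dose (0.681% of genes).

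Among the regulators, Nfe2l2, which encodes NRF2, varied little. Its normalized counts were 3489, 2937 and 3866 in unstimulated, 4546, 3732 and 3963 in single LPS, 4536, 3584 and 5154 in LPS-primed, 3767, 4366 and 4402 in LPS-tolerant, 5006, 4427 and 5420.0 in LPS-primed carboplatin and 4272, 4549.8 and 4615 in LPS-tolerant carboplatin BMDMs. All groups overlapped those they were compared with. The log2FC of priming was 0.37 ± 0.15 (SE, n = 3 per group), with a 95% interval of 0.0762 to 0.658, higher in 3 of 3 same-numbered pairs, and was called with the block but not without it (adjusted p = 0.0815). The single dose gave 0.25 ± 0.15 (adjusted p = 0.17). NRF2 is controlled mainly through its protein, which these counts do not measure.

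Keap1, the adaptor that brings NRF2 to its ligase, had 802, 533 and 499 normalized counts in unstimulated and 452, 357 and 473 in single LPS BMDMs, where every sample was under the unstimulated ones. It fell by 0.52 on the log2 scale (SE 0.17, adjusted p = 0.0203). The values were 603, 668 and 555 in LPS-primed and 468, 405 and 425 in LPS-tolerant BMDMs, which did not overlap, with a log2FC of -0.49 ± 0.17 (adjusted p = 0.107) that was called with the block. Priming gave -0.01 ± 0.17 (95% interval -0.346 to 0.334).

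Sqstm1 encodes p62, which gathers cargo for autophagy and can bind KEAP1. Its counts were 6404, 6740.4 and 5823 in unstimulated, 26481, 20501 and 16712 in single LPS, 7449, 7196 and 6956 in LPS-primed and 15663, 12943 and 12461 in LPS-tolerant BMDMs. No single LPS sample overlapped any other of these groups, and the LPS-tolerant samples lay between the single LPS and LPS-primed ones. It rose by a log2FC of 1.75 ± 0.17 after the single dose (adjusted p = 3.55e-07) and by 0.93 ± 0.17 after the second (adjusted p = 0.00317), and LPS-tolerant BMDMs were lower than single LPS BMDMs by a log2FC of -0.63 ± 0.17 (adjusted p = 0.00707). After priming alone the log2FC was 0.19 ± 0.17 (adjusted p = 0.468). Sqstm1 overlaps Mgat4b and Mrnip on the opposite strand, and the strand setting of the counting is not stated.

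Maff encodes a small MAF protein, a partner of NRF2 and of BACH1 on DNA with no activation domain of its own. It was nearly silent in unstimulated BMDMs, with 4, 6 and 5 reads, or 3.82, 4.92 and 4.54 normalized counts. It reached 478, 262 and 353 normalized counts in single LPS, 55, 44.4 and 45.0 in LPS-primed and 127, 117 and 115 in LPS-tolerant BMDMs. These 4 groups did not overlap. The log2FC was 6.31 ± 0.29 after the single dose (79.5-fold, adjusted p = 5e-11), 3.40 ± 0.30 after priming (10.6-fold, adjusted p = 2.34e-07) and 1.31 ± 0.22 after the second dose (2.48-fold, adjusted p = 0.00171), and LPS-tolerant BMDMs held 0.33 times the level of single LPS BMDMs (adjusted p = 1.8e-05). Folds against so few reads are loosely bounded, with a 95% interval of 5.74 to 6.88 for the log2FC of the single dose.

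Mafg, another small MAF gene, was higher after either exposure. Mean normalized counts were 155 ± 26.3 (SD, n = 3) in unstimulated, 249.7 ± 47.2 in single LPS, 295 ± 52.2 in LPS-primed and 455 ± 84.5 in LPS-tolerant BMDMs. It rose by a log2FC of 0.69 ± 0.20 after the single dose (adjusted p = 0.00772) and by 0.93 ± 0.20 after priming (adjusted p = 0.00205), and it was higher in LPS-tolerant than in single LPS BMDMs by 0.86 ± 0.20 (adjusted p = 0.00241). Mafg shares its strand and part of its span with Sirt7 in the annotation, so reads there may be split between the genes.

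Bach1, the repressor of antioxidant response elements, had a wide spread within groups. Its counts were 354, 819.6 and 835 in unstimulated, 979.6, 1527 and 1335 in single LPS, 200, 533 and 446 in LPS-primed and 205, 323 and 423 in LPS-tolerant BMDMs. Replicate 1 was the lowest sample of each of these groups. Every single LPS sample was above every unstimulated one, with a log2FC of 0.94 ± 0.41 (adjusted p = 0.0661), and priming gave -0.77 ± 0.41 (adjusted p = 0.199). Both were called with the block. LPS-tolerant BMDMs were lower than single LPS BMDMs by a log2FC of -2.01 ± 0.42 (0.248-fold, adjusted p = 0.00138).

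**Figure D2:**
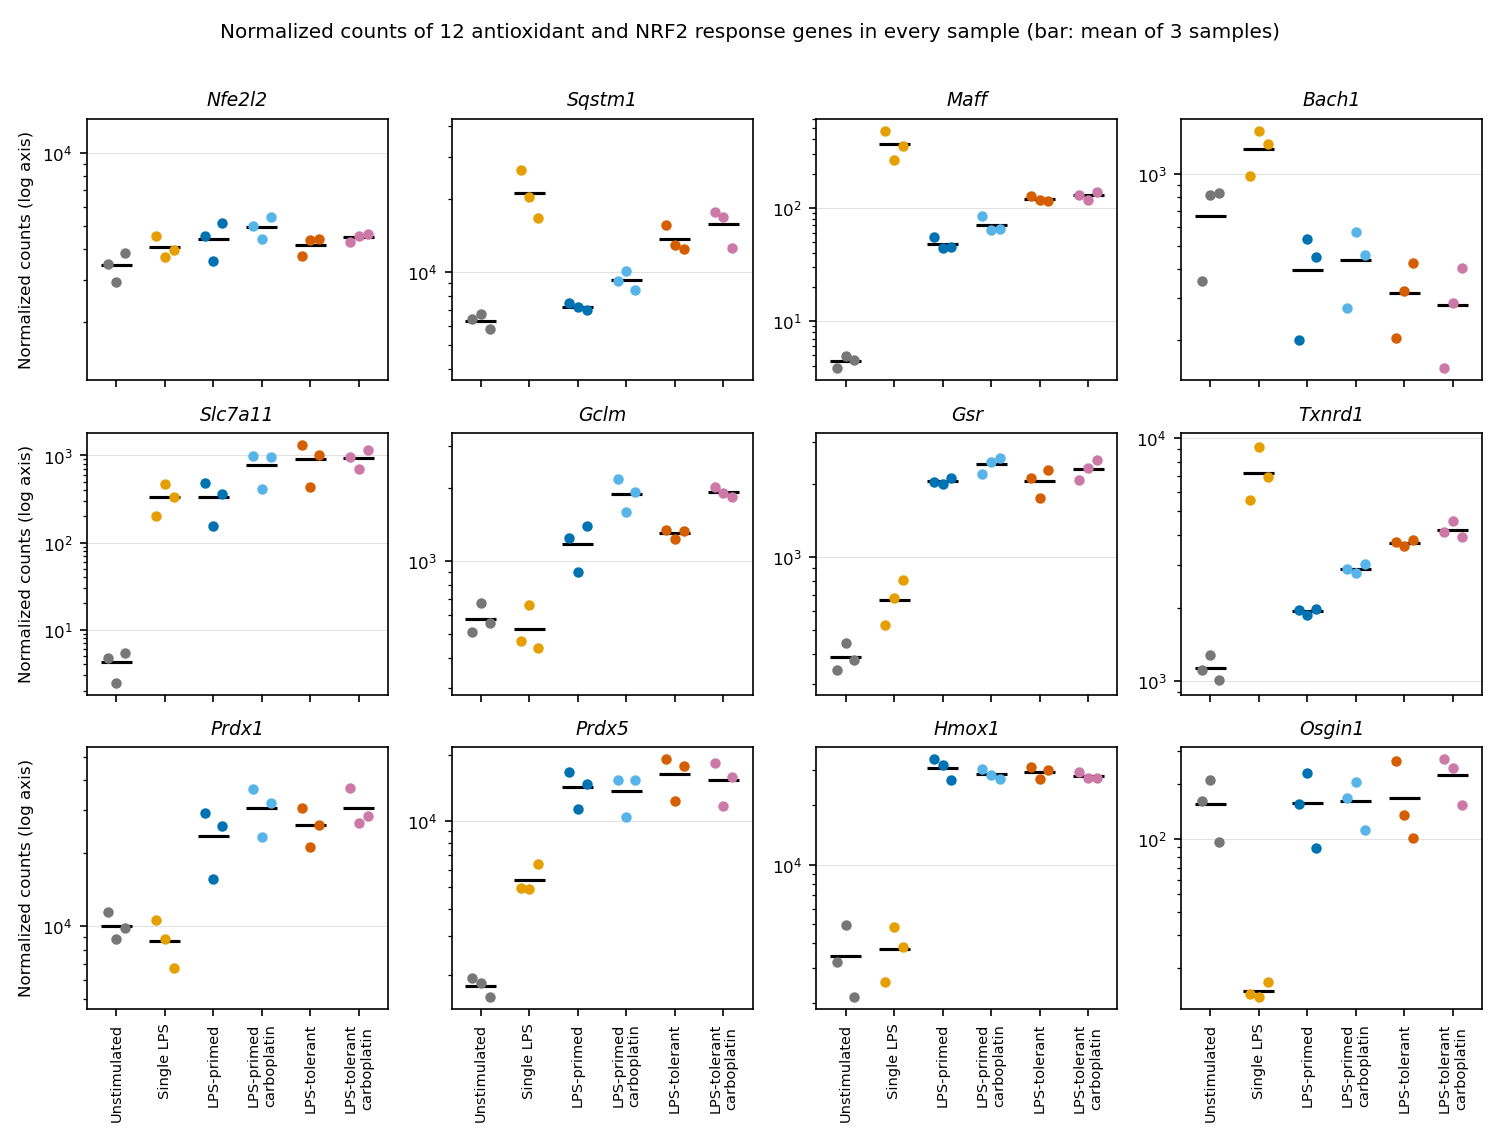
Normalized counts (log axis) of 12 antioxidant and NRF2 response genes in every sample, by group, with replicates 1, 2 and 3 from left to right as points and the group mean as a bar. Nfe2l2 stays between 2937 and 5420.0 in all samples, Hmox1, Prdx5, Gsr and Prdx1 are high in the 4 groups given LPS for 24 h, and Txnrd1, Sqstm1, Maff and Bach1 have their highest mean in single LPS BMDMs.

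Slc7a11, the membrane exchanger that takes up cystine for glutathione synthesis in return for glutamate, had the largest rise of the glutathione supply genes. Unstimulated BMDMs held 5, 3 and 6 reads, or 4.78, 2.46 and 5.45 normalized counts. Single LPS BMDMs had 199, 465 and 331, LPS-primed BMDMs 479, 155 and 357 and LPS-tolerant BMDMs 1321, 436 and 1012. Every stimulated sample was above the unstimulated ones, while the stimulated groups overlapped. The log2FC was 6.28 ± 0.66 after the single dose (77.6-fold, adjusted p = 7.17e-07) and 6.27 ± 0.66 after priming (77.1-fold, adjusted p = 1.9e-06), with 95% intervals of 4.99 to 7.57 and 4.98 to 7.56. LPS-tolerant BMDMs were higher than single LPS BMDMs by 1.47 ± 0.44 (adjusted p = 0.0154), although replicate 2 went the other way. Against LPS-primed BMDMs the log2FC was 1.48 ± 0.44 (adjusted p = 0.0559), higher in 3 of 3 pairs, and was called with the block. The gene spans 49846975 to 50398070 of chromosome 3 on the minus strand of GRCm39.

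The 2 subunits of glutamate-cysteine ligase, which makes the first bond of glutathione, were called in different comparisons. Gclm, the modifier subunit, had 509, 675 and 556 normalized counts in unstimulated, 470.1, 663 and 437 in single LPS, 1247, 901 and 1404 in LPS-primed and 1352, 1232 and 1332 in LPS-tolerant BMDMs. It rose only with the 24 h exposure among the comparisons with unstimulated BMDMs, by a log2FC of 1.03 ± 0.18 (2.04-fold, adjusted p = 0.000491), and was higher in LPS-tolerant than in single LPS BMDMs by 1.32 ± 0.19 (adjusted p = 3.75e-05). The single dose gave -0.15 ± 0.18 (95% interval -0.507 to 0.215). Gclc, the catalytic subunit, had 221, 376 and 239.9 in unstimulated, 249, 332 and 278 in single LPS, 214, 296 and 259.8 in LPS-primed and 389, 526 and 439.6 in LPS-tolerant BMDMs. It was higher in LPS-tolerant BMDMs than in LPS-primed ones by a log2FC of 0.82 ± 0.21 (adjusted p = 0.0296) and than in single LPS ones by 0.65 ± 0.21 (adjusted p = 0.023), with no overlap in either case, while priming gave -0.12 ± 0.21 (95% interval -0.538 to 0.293).

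Gsr, glutathione reductase, which returns oxidized glutathione to its reduced form, was higher after either exposure. Its counts were 343, 444 and 378 in unstimulated, 523, 677 and 804 in single LPS, 2049, 2007 and 2122 in LPS-primed and 2127, 1762 and 2280.3 in LPS-tolerant BMDMs. The first 3 of these groups did not overlap, and the LPS-primed and LPS-tolerant samples did. Gsr rose by a log2FC of 2.40 ± 0.16 after priming (5.3-fold, adjusted p = 1.33e-08) and by 0.78 ± 0.16 after the single dose (adjusted p = 0.000589), and LPS-tolerant BMDMs exceeded single LPS BMDMs by 1.62 ± 0.16 (adjusted p = 8.3e-07). The second dose gave -0.00 ± 0.15, with a 95% interval of -0.306 to 0.301. Gss, glutathione synthetase, was not called in any comparison, with log2FC between -0.45 ± 0.36 and 0.64 ± 0.36.

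Hmox1 encodes heme oxygenase, which opens heme into biliverdin, iron and carbon monoxide. Per kilobase of annotated exon it had the highest level of all members after 24 h of LPS. Unstimulated BMDMs had 3238, 4968 and 2141 normalized counts and single LPS BMDMs 2540.2, 4818 and 3853. LPS-primed BMDMs had 34106, 31964 and 26864 and LPS-tolerant BMDMs 31165, 27242 and 30181. The gap between the low and the high groups was wide, and within each pair the samples overlapped. Hmox1 rose by a log2FC of 3.17 ± 0.26 with priming (8.98-fold, adjusted p = 1.3e-07) and was higher in LPS-tolerant than in single LPS BMDMs by 2.98 ± 0.26 (7.9-fold, adjusted p = 2.15e-07). The single dose gave 0.12 ± 0.24 (95% interval -0.358 to 0.59) and the second dose -0.07 ± 0.24 (95% interval -0.542 to 0.404). The gene lies at 75820241 to 75827217 of chromosome 8 on the plus strand of GRCm39.

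The biliverdin reductase genes Blvra and Blvrb did not follow Hmox1. Blvra had 1347, 1218 and 1011 normalized counts in unstimulated, 861, 559.7 and 645 in single LPS, 814, 984 and 808 in LPS-primed and 874, 933 and 799 in LPS-tolerant BMDMs. It fell by 0.79 on the log2 scale after the single dose (SE 0.17, adjusted p = 0.000969), and all LPS-primed samples were also under the unstimulated ones (log2FC -0.46 ± 0.17, adjusted p = 0.0582, called with the block). Blvrb, with means of 1238 ± 297 (SD, n = 3) in unstimulated and 1488 ± 295 in LPS-primed BMDMs, was called only with the block and only between LPS-tolerant and single LPS BMDMs.

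In the thioredoxin branch, Txnrd1, the cytosolic thioredoxin reductase that spends NADPH to keep thioredoxin reduced, answered both LPS doses. Its counts were 1103, 1269.6 and 1001 in unstimulated, 5545, 9169.9 and 6921 in single LPS, 1953, 1872 and 1981 in LPS-primed and 3737, 3602 and 3785 in LPS-tolerant BMDMs. These 4 groups did not overlap. The log2FC was 2.68 ± 0.16 after the single dose (6.41-fold, adjusted p = 1.21e-09), 0.78 ± 0.15 after priming (adjusted p = 0.000999) and 0.94 ± 0.15 after the second dose (1.92-fold, adjusted p = 0.00139), and LPS-tolerant BMDMs stayed under single LPS BMDMs by -0.96 ± 0.15 (adjusted p = 0.000116). Txnrd1 shares its strand and part of its span with Eid3, whose reads may be counted with it or dropped.

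Srxn1, sulfiredoxin, which repairs over-oxidized peroxiredoxins, had 171, 209.8 and 101 normalized counts in unstimulated, 409, 317 and 302 in single LPS, 269.9, 203 and 160.4 in LPS-primed and 549.5, 297 and 431 in LPS-tolerant BMDMs. It rose by a log2FC of 1.09 ± 0.30 after the single dose (2.13-fold, adjusted p = 0.00625). The second dose gave 1.01 ± 0.30 (2.02-fold, adjusted p = 0.054), with all LPS-tolerant samples above all LPS-primed ones, and was called with the block and by DESeq2. Txn1, thioredoxin itself, rose by 0.86 ± 0.20 with priming (adjusted p = 0.00367) and by 0.77 ± 0.20 after the single dose (adjusted p = 0.00387), from a mean of 2549 ± 428 (SD, n = 3) to 4639 ± 836 and 4353 ± 383.

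The 6 peroxiredoxins, which reduce hydrogen peroxide and lipid peroxides with thioredoxin or glutathione, split into 3 that rose with priming, 2 that were not called without the block and 1 that fell. Prdx5 had 1925, 1825 and 1581 normalized counts in unstimulated, 4963, 4901 and 6399 in single LPS, 16725, 11380.4 and 14733 in LPS-primed and 19154, 12359 and 17786 in LPS-tolerant BMDMs. The first 3 groups were separate and the last overlapped LPS-primed. It rose by a log2FC of 3.01 ± 0.23 with priming (8.03-fold, adjusted p = 5.02e-08) and by 1.61 ± 0.22 after the single dose (adjusted p = 1.25e-05), and the second dose gave 0.20 ± 0.21 (95% interval -0.215 to 0.62). Trmt112 lies across Prdx5 on the opposite strand.

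Prdx1, a cytosolic peroxiredoxin, had 11439, 8818 and 9854 normalized counts in unstimulated, 10587, 8830.2 and 6704 in single LPS, 29296, 15613 and 25916 in LPS-primed and 30753, 21147 and 26107 in LPS-tolerant BMDMs. Prdx6, which uses glutathione, had 527, 500.0 and 412 in unstimulated, 552, 498 and 541 in single LPS, 2389.8, 991 and 1391 in LPS-primed and 2643, 969 and 1789 in LPS-tolerant BMDMs. Both were high in every sample given LPS for 24 h, and replicate 2 was the lowest of its group each time there. Prdx1 rose by a log2FC of 1.23 ± 0.24 with priming (adjusted p = 0.00106) and was higher in LPS-tolerant than single LPS BMDMs by 1.58 ± 0.24 (adjusted p = 9.25e-05). Prdx6 rose by 1.73 ± 0.39 (adjusted p = 0.00323) and 1.76 ± 0.39 (adjusted p = 0.00205) in the same comparisons. After the single dose their log2FC were -0.21 ± 0.24 and 0.15 ± 0.38.

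The peroxiredoxin of the endoplasmic reticulum, Prdx4, fell by 0.44 on the log2 scale with priming (SE 0.15, adjusted p = 0.0447), from 1138, 937 and 935 to 780.0, 745 and 694 normalized counts. Prdx2, in the cytosol, and Prdx3, in mitochondria, were not called in any comparison of the fit without the block. Prdx2 means were 1533 ± 221 (SD, n = 3) in unstimulated and 1991 ± 249.8 in LPS-primed BMDMs, with no overlap. Prdx3 means lay between 256 ± 39.7 and 312 ± 28.7 in the 6 groups. On the opposite strand, Acot9 overlaps Prdx4, and Junb and Rnaseh2a overlap Prdx2.

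Of the superoxide and peroxide enzymes that are not peroxiredoxins, none was higher in any comparison without the block. Sod1, the copper and zinc superoxide dismutase, had 3839, 4329 and 3805 normalized counts in unstimulated, 3798, 2743 and 2816 in single LPS, 2334, 1562 and 1668 in LPS-primed and 2577, 1844 and 1987 in LPS-tolerant BMDMs. It fell by 1.11 on the log2 scale with priming (0.465-fold, SE 0.22, adjusted p = 0.00113). Scaf4 overlaps Sod1 on the opposite strand. Catalase, encoded by Cat, fell by 0.55 with priming (SE 0.16, adjusted p = 0.016) and by 0.90 after the single dose (SE 0.16, adjusted p = 0.00018), from a mean of 3394 ± 468 (SD, n = 3) to 2311 ± 301 and 1816 ± 67.3. Gpx4, which reduces lipid peroxides in membranes, was lower after the single dose by a log2FC of -0.49 ± 0.20 (adjusted p = 0.0469), with overlapping groups. Gpx1, the main cytosolic glutathione peroxidase, gave -0.42 ± 0.24 with priming and -0.56 ± 0.24 after the single dose (adjusted p = 0.229 and 0.0645), and was called in both with the block.

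Of the glutathione transferases, which join glutathione to reactive compounds, 1 rose and 3 fell with priming. Mgst3, a microsomal enzyme of the same broad family, had 996, 702 and 546 normalized counts in unstimulated, 696, 299 and 394 in single LPS, 221, 162 and 157 in LPS-primed and 169.7, 104 and 126 in LPS-tolerant BMDMs. It fell by 2.06 on the log2 scale (0.241-fold, SE 0.33, adjusted p = 0.000166), and LPS-tolerant BMDMs were lower than single LPS BMDMs by a log2FC of -1.80 ± 0.33 (adjusted p = 0.000431). Gstm1, a cytosolic transferase with close paralogs that may share its reads, had 1828, 2036 and 1959.6 in unstimulated, 1514, 1462 and 1729 in single LPS, 1135, 566 and 1006 in LPS-primed and 1105, 817 and 1046 in LPS-tolerant BMDMs, and with priming it fell by 1.10 (SE 0.22, adjusted p = 0.0011). It was also lower in LPS-tolerant than in single LPS BMDMs (log2FC -0.67 ± 0.22, adjusted p = 0.0243). Gsto1 fell by 0.52 (SE 0.17, adjusted p = 0.0312).

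Mgst1, a microsomal transferase with peroxidase activity, went up instead, from 453, 787 and 702 normalized counts in unstimulated to 1173, 964 and 1268 in LPS-primed BMDMs, with a log2FC of 0.81 ± 0.20 (adjusted p = 0.00706). It was higher in LPS-tolerant than single LPS BMDMs by 0.86 ± 0.21 (adjusted p = 0.00339). Mgst2 and Gstp1 were not called without the block. Mgst2 in LPS-primed BMDMs ran from 54.7 in replicate 2 to 392 in replicate 1, around the unstimulated values of 109, 95.9 and 121, and Gstp1, whose reads may be shared with its copy Gstp2, stayed between 32.5 and 196 in all samples.

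Abcc1, the pump that exports glutathione and its conjugates, rose after either exposure. It had 1312, 1542 and 1342 normalized counts in unstimulated, 2998, 3827 and 3873 in single LPS, 3503, 2897 and 3256 in LPS-primed and 4089.8, 2949 and 4412 in LPS-tolerant BMDMs. The stimulated groups lay above the unstimulated one and overlapped each other. The log2FC was 1.35 ± 0.19 after the single dose (2.55-fold, adjusted p = 1.6e-05), 1.20 ± 0.19 with priming (2.3-fold, adjusted p = 0.000128) and 0.25 ± 0.18 after the second dose (95% interval -0.116 to 0.608).

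Among the remaining enzymes, Nqo1, the quinone reductase often used as a readout of NRF2, was a rare transcript in these BMDMs. Reads per sample were 44, 78 and 57 in unstimulated, 46, 32 and 30 in single LPS, 43, 23 and 43 in LPS-primed and 73, 27 and 39 in LPS-tolerant BMDMs, and the groups overlapped. The log2FC was -0.49 ± 0.54 with priming (95% interval -1.55 to 0.569) and -0.59 ± 0.54 after the single dose (95% interval -1.65 to 0.472). Me1, the malic enzyme that makes NADPH, had 92.7, 67.2 and 82.7 normalized counts in unstimulated, 147, 116 and 149.9 in single LPS, 163, 153 and 245 in LPS-primed and 242, 270.3 and 301 in LPS-tolerant BMDMs. It rose by a log2FC of 1.21 ± 0.20 with priming (adjusted p = 0.00027) and 0.76 ± 0.20 after the single dose (adjusted p = 0.00495).

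Osgin1, a growth inhibitor induced by oxidative stress, was the member that fell most. It had 161, 209.8 and 96.3 normalized counts in unstimulated and 14.3, 13.8 and 16.8 in single LPS BMDMs, a fall of 3.37 on the log2 scale (0.0966-fold, SE 0.46, adjusted p = 1.25e-05). LPS-primed BMDMs had 155, 228 and 89.1 and LPS-tolerant BMDMs 266, 136 and 102. After the same 10 ng/ml of LPS, primed BMDMs held 11.1-fold more Osgin1 transcript than unprimed ones (log2FC 3.47 ± 0.46, adjusted p = 2e-05). The carbonyl reductases shared the fall. Cbr3, which like Cbr1 reduces carbonyl compounds with NADPH, went from 249, 251 and 207 in unstimulated to 57.3, 39.4 and 51.3 after the single dose, a fall of 2.27 (0.208-fold, SE 0.27, adjusted p = 2.96e-06), and was 168, 193 and 166 in LPS-primed and 144, 66.5 and 108 in LPS-tolerant BMDMs. Cbr1 went from 430.2, 315 and 384 to 254, 90.6 and 148, a fall of 1.21 (SE 0.28, adjusted p = 0.00167), and was 353, 309 and 292 in LPS-primed and 328, 235 and 225 in LPS-tolerant BMDMs.

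Levels of different genes were compared per length, as counts per kilobase of exon after scaling to the same library total. The length is that of all annotated exons of a gene joined, 4161 bases for Prdx1, 1445 for Gpx1 and 1759 for Hmox1. It can exceed the length of the transcript expressed, which lowers the level, so the order depends on the annotation. Without division by length, LPS-primed carboplatin BMDMs had a mean of 30751 normalized counts for Prdx1 and 28624 for Hmox1. By this level Gpx1 was the most abundant member in unstimulated BMDMs at 766 ± 187 (SD, n = 3), ahead of Prdx1 at 259 ± 34.1 and Hmox1 at 211 ± 87, and the last of these did not differ beyond their spread. In LPS-primed BMDMs Hmox1 stood at 1890 ± 227, above Prdx5 at 611 ± 116, Prdx1 at 610 ± 184 and Gpx1 at 572 ± 75.8, which were within their spread of each other. LPS-tolerant BMDMs kept this order, with Hmox1 at 1800 ± 125. In single LPS BMDMs Gpx1 came first at 522 ± 197, followed by Sqstm1 at 278 ± 64.5, Prdx5 at 232 ± 36.3, Hmox1 at 228 ± 69.8 and Prdx1 at 225 ± 50.2, and the last 4 did not differ beyond their spread. The 39 members together took 0.772% to 0.864% of all counts on genes in unstimulated and 0.788% to 0.955% in single LPS BMDMs, and 1.14% to 1.46% in LPS-primed and 1.19% to 1.47% in LPS-tolerant BMDMs.

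The design also allows the response to 10 ng/ml LPS to be compared between BMDMs that had not met LPS, as single LPS minus unstimulated, and BMDMs that had been primed, as LPS-tolerant minus LPS-primed. A single contrast over the 4 groups, which share no samples, tested this difference. The time of the single dose is not given and may differ from the 3 h of the second dose. Such a difference and priming cannot be told apart here. Slc7a11, Maff, Txnrd1, Prdx5, Abcc1, Sqstm1 and Gsr had a smaller log2FC the second time. Osgin1, Cbr3 and Blvra, which fell after the first dose, had a higher one. Thus 3 members had a higher and 7 a lower second response (7.69% and 17.9%), where 10.5% and 13.3% of all tested genes were called. Both shares were near the background. At a log2FC difference beyond 1, 2 were higher and 5 lower, against 8.24% and 10.1% of genes, and beyond 2 the members were Osgin1, Maff and Slc7a11, against 8.01% of genes. Without replicate 1 of single LPS, 6 members had a higher second response. With scaling by library size alone 7 had a higher and 5 a lower second response, where 16.5% and 9.54% of all tested genes were called.

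Maff differed most, with a log2FC of 6.31 ± 0.29 the first time and 1.31 ± 0.22 the second, a difference of -5.00 ± 0.36 (adjusted p = 3.28e-08). Slc7a11 followed with 6.28 ± 0.66 and 1.48 ± 0.44 (difference -4.80 ± 0.81, adjusted p = 0.000305). Both were nearly absent in unstimulated BMDMs and already present after priming, so their second response started from a higher level. Mean Slc7a11 per kilobase went from 0.0293 to 2.3 the first time and from 2.29 to 6.39 the second. Its second rise was thus smaller as a fold but not in counts. For Txnrd1 the difference was -1.74 ± 0.22 (adjusted p = 1.47e-05), for Prdx5 -1.41 ± 0.30 (adjusted p = 0.00252), for Abcc1 -1.10 ± 0.26 (adjusted p = 0.00517), for Sqstm1 -0.82 ± 0.24 (adjusted p = 0.0177) and for Gsr -0.78 ± 0.22 (adjusted p = 0.0158). All 7 differences were negative in 3 of 3 same-numbered sets. With scaling by library size alone, Sqstm1 (-0.59, adjusted p = 0.0625) and Gsr (-0.55, adjusted p = 0.0818) were no longer called, nor was Gsr without single LPS replicate 3 (-0.63, adjusted p = 0.052).

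In the other direction, Osgin1 fell by 3.37 the first time and gave 0.09 ± 0.39 the second, a difference of 3.46 ± 0.60 (adjusted p = 0.000381). For Cbr3 the 2 responses were -2.27 ± 0.27 and -0.73 ± 0.26 (difference 1.53 ± 0.37, adjusted p = 0.0056), and for Blvra -0.79 ± 0.17 and -0.00 ± 0.17 (difference 0.79 ± 0.24, adjusted p = 0.0232). The call of Blvra was lost without unstimulated replicate 1, LPS-primed replicate 1 or 3, LPS-tolerant replicate 2 or single LPS replicate 2 or 3 (0.66 to 0.75, adjusted p = 0.0543 to 0.0653). Srxn1 gave nearly equal values, 1.09 and 1.01, and the difference of -0.08 ± 0.42 had a 95% interval of -0.903 to 0.747. For Hmox1 the difference was -0.19 ± 0.34 (95% interval -0.855 to 0.485), and for Gclc it was 0.78 ± 0.30 (adjusted p = 0.0711).

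**Figure D3:**
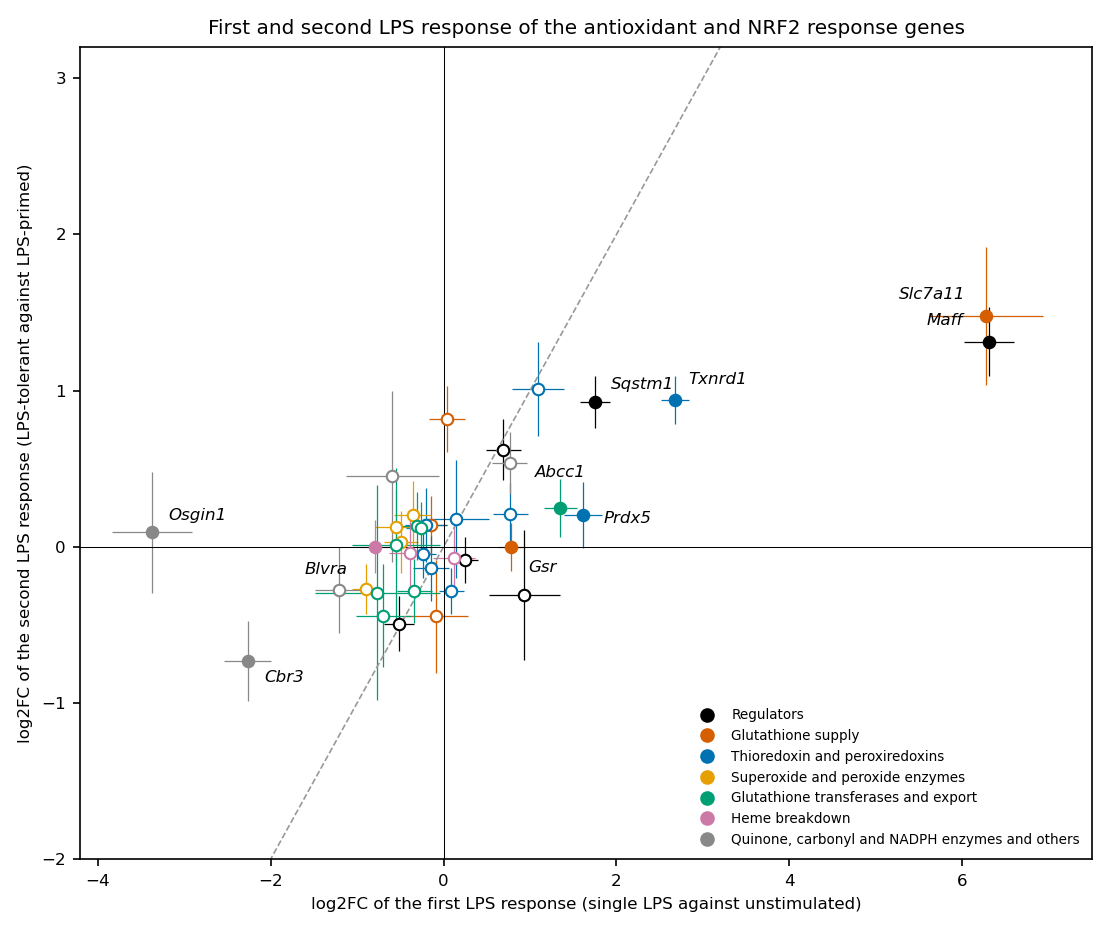
First LPS response (x axis, log2FC of single LPS against unstimulated BMDMs) and second LPS response (y axis, log2FC of LPS-tolerant against LPS-primed BMDMs) of the 39 genes, with SE as bars and equal responses on the dashed line. Filled points, which are named, are the 10 genes whose responses differed, and Maff and Slc7a11 lie farthest to the right at 6.31 and 6.28 while their second responses are 1.31 and 1.48.

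In the fit without the replicate block, carboplatin called no member in either state, while Gclc and Txnrd1 were called with it in LPS-primed BMDMs. In LPS-primed BMDMs 0 of 39 members passed the edgeR test in either direction, where 0% of all tested genes were called higher and 0.372% lower, and 7 members had an unadjusted p under 0.05, as did 6.86% of genes. In LPS-tolerant BMDMs 0 of 39 passed, where 0.0177% of all tested genes were called higher and 0.407% lower, and 2 members had an unadjusted p under 0.05, as did 6.73% of genes. DESeq2 called Txnrd1 alone higher in LPS-primed BMDMs (adjusted p = 0.0364), where it called 0.0489% of genes higher and 0.921% lower, and no member in LPS-tolerant BMDMs, where it called 0.119% and 1.02%. With the replicate block, Gclc (adjusted p = 0.00555) and Txnrd1 (adjusted p = 0.031) were higher in LPS-primed BMDMs, where 0.239% of all tested genes were higher and 1.53% lower, and no member was called in LPS-tolerant BMDMs, where 0.336% and 1.43% were.

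Most members nonetheless had a log2FC above 0, namely 30 of 39 (76.9%) in LPS-primed and 29 of 39 (74.4%) in LPS-tolerant BMDMs, against 51.6% and 51.3% of all tested genes. The median log2FC was 0.191 and 0.189 over the members and 0.0105 and 0.00746 over all tested genes. All 5 glutathione supply genes were above 0 in both states, with medians of 0.684 and 0.428. These are counts and medians of a list, and members were not tested as a set.

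Gclm had 2181, 1598 and 1930.1 normalized counts with carboplatin against 1247, 901 and 1404 without it in LPS-primed BMDMs, and 2021, 1921 and 1834 against 1352, 1232 and 1332 in LPS-tolerant BMDMs. In both states every carboplatin sample was above every sample without it. The log2FC was 0.68 ± 0.18 (1.61-fold, adjusted p = 0.178) and 0.56 ± 0.18 (1.47-fold, adjusted p = 0.331). Gclc had 415, 472 and 395 against 214, 296 and 259.8 in LPS-primed BMDMs, with no overlap and a log2FC of 0.74 ± 0.21 (adjusted p = 0.247), and 601, 727 and 497 against 389, 526 and 439.6 in LPS-tolerant BMDMs, with overlap and 0.43 ± 0.21 (adjusted p = 0.754). Slc7a11 was at 982, 409 and 958 against 479, 155 and 357 in LPS-primed BMDMs (log2FC 1.24 ± 0.44, adjusted p = 0.438), higher in 3 of 3 pairs. In LPS-tolerant BMDMs it was at 961, 707 and 1145 against 1321, 436 and 1012 (log2FC 0.03 ± 0.43, 95% interval -0.813 to 0.865).

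Txnrd1 had 2871, 2767 and 3019 normalized counts with carboplatin against 1953, 1872 and 1981 without it in LPS-primed BMDMs (log2FC 0.58 ± 0.15, adjusted p = 0.171), and 4084, 4544 and 3893 against 3737, 3602 and 3785 in LPS-tolerant BMDMs (0.17 ± 0.15, 95% interval -0.126 to 0.467). The groups did not overlap in either state. Srxn1 gave 0.55 ± 0.30 and 0.40 ± 0.29, higher in 3 of 3 pairs each. Hmox1, with 30510.0, 28309 and 27052 in LPS-primed carboplatin and 29591, 27586 and 27416 in LPS-tolerant carboplatin BMDMs, gave -0.11 ± 0.24 (95% interval -0.587 to 0.359) and -0.07 ± 0.24 (95% interval -0.54 to 0.407). Nqo1 gave 0.52 ± 0.55 and 0.30 ± 0.54. Keap1 gave 0.05 ± 0.17 in LPS-primed and 0.33 ± 0.17 in LPS-tolerant BMDMs, where the groups did not overlap (adjusted p = 0.831). In all, 8 of 39 members did not overlap between the LPS-primed groups, where 12.9% of all tested genes did not. Of these, Gclc, Gclm, Gsr, Txnrd1, Sqstm1 and Maff were above and Mgst3 and Prdx4 below the samples without carboplatin. Between the LPS-tolerant groups 3 members did not overlap, Gclm, Txnrd1 and Keap1, all above, where 11.4% of genes did not.

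The other members given by sample had the following levels with carboplatin, in LPS-primed and then in LPS-tolerant BMDMs. Sqstm1 had 9185, 10136 and 8471 and then 17701, 16923 and 12619.7 normalized counts, with a log2FC of 0.36 ± 0.17 and 0.20 ± 0.17. Maff had 85.1, 63.0 and 64.4 and then 128, 117 and 139 (0.55 ± 0.22 and 0.10 ± 0.21). Gsr had 2208, 2472 and 2568 and then 2077, 2326 and 2521 (0.23 ± 0.15 and 0.17 ± 0.15). For all 3, the LPS-primed groups were separate and the LPS-tolerant groups overlapped. Keap1 had 718, 594 and 579.6 and then 563, 560.1 and 505. Bach1 had 273, 571 and 458 and then 152, 287 and 402 (0.15 ± 0.41 and -0.17 ± 0.42). Srxn1 had 428, 236 and 268 and then 683, 449.6 and 547, and Srxn1 and Bach1 overlapped in both states.

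The peroxiredoxins had overlapping groups in both states among those that rose with priming. Prdx1 had 36724, 23229 and 32299 and then 37028, 26588 and 28576 normalized counts with carboplatin (0.38 ± 0.24 and 0.24 ± 0.24). Prdx5 had 15437, 10455 and 15354 and then 18472, 11723 and 15949 (-0.05 ± 0.21 and -0.10 ± 0.21). Prdx6 had 3032, 1263 and 2052 and then 2892, 1236 and 2026 (0.41 ± 0.38 and 0.19 ± 0.38). Sod1 and Gstm1 were higher in 3 of 3 pairs in both states without passing the test. Sod1 had 2829, 2251 and 2185 and then 3538, 2128 and 2067 (0.38 ± 0.22 and 0.27 ± 0.22), and Gstm1 had 1279, 941 and 1265 and then 1402, 937 and 1203 (0.36 ± 0.22 and 0.26 ± 0.22).

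Among the rest, Mgst3 was the member with the lowest log2FC of carboplatin, in LPS-primed BMDMs. It had 126, 94.9 and 128 and then 151, 77.4 and 159.9 normalized counts (-0.63 ± 0.33 and -0.03 ± 0.33). Abcc1 had 3536, 2386 and 3353 and then 3131, 2536 and 3621 (-0.06 ± 0.18 and -0.30 ± 0.18). Blvra had 648, 873 and 669 and then 859, 869.7 and 764 (-0.25 ± 0.17 and -0.06 ± 0.17). All 3 were below 0 in both states. Osgin1 had 167, 204 and 112 and then 271, 245 and 153 (0.04 ± 0.39 and 0.42 ± 0.38). Cbr1 had 315, 305 and 315 and then 391, 268 and 273, and Cbr3 had 203, 142 and 201 and then 179.6, 113 and 127. These 3 were higher in 3 of 3 pairs in LPS-tolerant BMDMs. Me1 had 248, 221 and 267 and then 235, 279 and 298 (0.39 ± 0.20 and -0.00 ± 0.20), and Nqo1 had 98.6, 17.9 and 47.3 and then 72.1, 43.3 and 73.5.

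The effect of carboplatin was also compared between the LPS-tolerant and LPS-primed states. No member differed, in a test that called 0% of all genes in either direction by edgeR and by DESeq2, and 0 of 39 members had an unadjusted p under 0.05, as did 1.16% of genes. The largest difference among members was that of Slc7a11, at -1.22 ± 0.61 (adjusted p = 1).

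**Figure D4:**
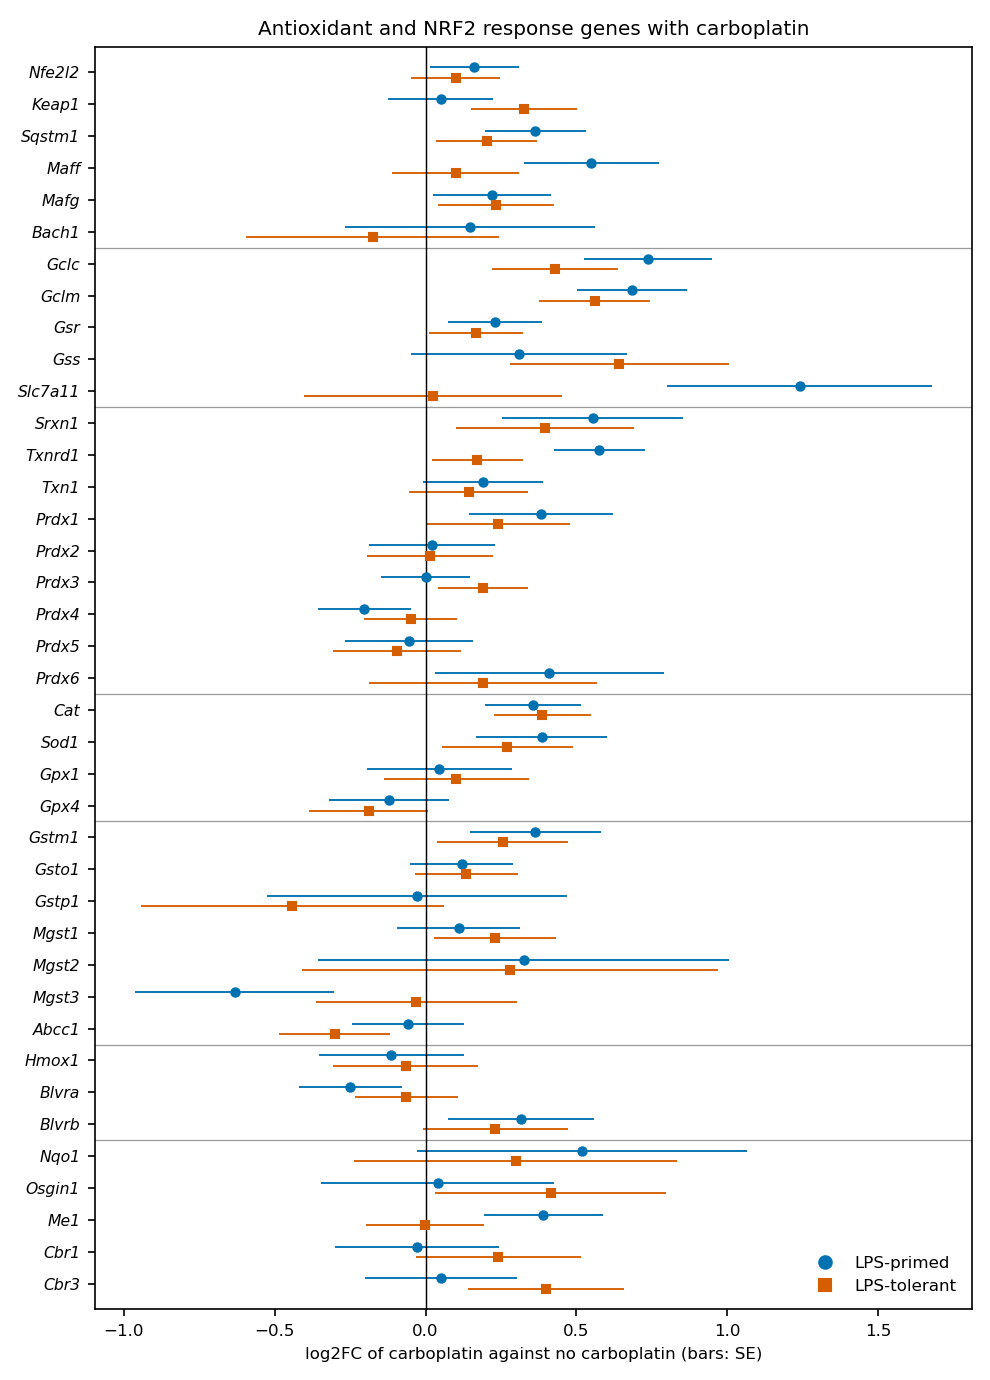
log2FC of carboplatin against no carboplatin for the 39 genes, in LPS-primed (circles) and LPS-tolerant (squares) BMDMs, with SE as bars and lines between the same functional groups as in the heatmap. Points lie to the right of 0 for 30 genes in LPS-primed and 29 in LPS-tolerant BMDMs. No gene was called in either state in this fit, which has no replicate block.

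Another 69 genes of the same pathways, chosen by textbook role, were read in the same fits, and 59 of them were tested. This list, too, was chosen with earlier results of these data known. With priming 13 were higher (22%) and 9 lower (15.3%), where 12.1% and 13.1% of all tested genes were called, led by Ephx1 (log2FC -3.63), the microsomal epoxide hydrolase, Glrx (3.06), a glutaredoxin that removes glutathione from proteins, Gstm2 (2.81) and Sesn1 (-2.57), a stress-induced sestrin. After the single dose 8 were higher (13.6%) and 18 lower (30.5%), against 24.3% and 26.9% of genes, led by Sesn1 (-5.36), Msrb2 (-3.21), a methionine sulfoxide reductase, Sesn2 (-2.59) and Txnip (-2.39), which binds and inhibits thioredoxin. LPS-tolerant against single LPS BMDMs gave 19 higher (32.2%) and 5 lower (8.47%), against 16.2% and 18.3%, led by Ephx1 (-3.59), Sesn2 (2.19), Sesn1 (2.14) and Gpx3 (-2.08). After the second dose 2 were higher (3.39%), Glrx (1.24) and Txnrd3 (0.80), and none was lower, against 3.6% and 2.71% of genes.

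The second response was higher than the first for 6 of these genes (10.2%) and lower for 2 (3.39%), where 10.5% and 13.3% of all tested genes were called, led by Sesn1 (difference 4.71), Msrb2 (3.07), Txnip (2.81) and Abcc4 (-2.10), an export pump. Carboplatin called 1 of the 59 lower in each state (1.69%), against 0.372% and 0.407% of all tested genes, and none higher, and it was the same gene, Msra, a methionine sulfoxide reductase. Msra had 16.2, 16.9 and 14.1 normalized counts with carboplatin against 83.6, 106 and 59.1 without it in LPS-primed BMDMs, and 26.2, 14.8 and 21.1 against 69.6, 138 and 117 in LPS-tolerant BMDMs. It fell by 2.38 (SE 0.33, adjusted p = 0.0013) and by 2.40 (SE 0.32, adjusted p = 0.00166) on the log2 scale.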

How the data were processed

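RNA-Seq was measured in 18 BMDM samples, 3 per group. The authors aligned TruSeq stranded mRNA read pairs with HISAT2 to GRCm39 and deposited raw HTSeq counts per gene and sample, while tool versions, gene annotation and counting strand are not given in the sources used here. HTSeq summary rows, which name no gene and held 41.5% to 46.9% of the counts of each file, were left out. The 39 members and the other gene lists were chosen with earlier results of these data known.

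Counts were tested with edgeR 4.0.16 in R 4.3.3 (quasi-likelihood test, all 18 samples in one model, TMM scaling, filterByExpr with a minimum count of 10 and a total of 15, Benjamini-Hochberg adjustment over 11305 genes, threshold 0.05). The test was first tested on simulated data. SE is the log2FC divided by the root of F, and 95% intervals are 1.96 SE to either side. Alternatives were DESeq2 1.42.0, limma-voom (limma 3.58.1), other scalings, filters, prior counts and call limits, only the groups compared in the model, each sample left out, and the replicate number as a block. Intervals and p-values cover the spread between samples, which no source ties to separate mice. Deviations from the group means of same-numbered samples correlated at 0.0631 to 0.574 in 45 pairs (mean 0.349, against -0.17 for different numbers), with 44 over 0.1. In the 6 comparisons of 2 groups every pair was over 0.1, the criterion for pairing. This is a hint from the data and not stated by the labels. The main fit had no block, so its SE, intervals and p-values treat the samples as unpaired. The fit with the block, given beside it, called more members in each of these comparisons but carboplatin in LPS-tolerant BMDMs. Values in every sample were given for each member called beyond a log2FC of 1 and in one direction in the 3 pairs of equal number, for Nfe2l2, Keap1, Bach1, Nqo1, Hmox1, Gclc, Gclm, Srxn1, Txnrd1 and Slc7a11 in any case, and for members called with carboplatin or in a difference of responses. Of the other pathway genes, up to 4 per comparison with the largest called log2FC were named. Gene positions are from GENCODE on GRCm39. Promoter windows are from RefSeq on GRCm38.p6.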

Additional observations from a re-analysis of the deposited data

Results flagged for a closer look

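The 10 results listed here are members whose response to 10 ng/ml LPS differed between BMDMs without and with priming, tested as a contrast of 4 groups in edgeR. The second response minus the first, in log2FC, was -5.00 for Maff, -4.80 for Slc7a11, -1.74 for Txnrd1, -1.41 for Prdx5, -1.10 for Abcc1, -0.82 for Sqstm1 and -0.78 for Gsr, and it was 3.46 for Osgin1, 1.53 for Cbr3 and 0.79 for Blvra. Under some of the alternatives given in the next part, Gsr, Sqstm1 and Blvra were no longer called. For each of the 10, the 3 same-numbered sets of samples went the same way. The 2 responses started from different levels of the transcript and the second came with a change of medium. Their times may also differ, as that of the single dose is not given. The part of each was not tested.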

How the results depend on the processing

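The alternatives were applied to 45 named member results. These were the calls beyond a log2FC of 1 with 3 of 3 same-numbered pairs in one direction, and all calls in a difference of responses. Smaller calls, such as those of Prdx4, Gpx4, Gsto1, Keap1 and Cat, were not followed one by one. Of the 729 alternatives, 720 kept direction and call, 9 lost the call and 0 reversed. The 9 concern the difference between second and first LPS response of Gsr (library size alone, -0.55, adjusted p = 0.0818, and without single LPS replicate 3, -0.63, adjusted p = 0.052), Sqstm1 (library size alone, -0.59, adjusted p = 0.0625) and Blvra (6 fits with 1 sample left out, 0.66 to 0.75, adjusted p = 0.0543 to 0.0653). The alternative with at least 10 counts in every sample compared could not be applied to Maff and Slc7a11 wherever unstimulated BMDMs were used. Those cases are not among the 729. Counts of members moved more.

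In the order higher then lower, the limit of a log2FC of 2 gave 5 and 1 members with priming, 3 and 2 after the single dose, 2 and 1 in LPS-tolerant against single LPS BMDMs, 0 higher after the second dose, and 1 and 2 for the second minus the first response. The limit of 1 gave 3 lower with priming, 7 higher and 3 lower after the single dose, 3 lower in LPS-tolerant against single LPS BMDMs and 1 higher after the second dose. With the replicate block there were 13 lower members after the single dose, 20 higher in LPS-tolerant against single LPS BMDMs, 8 higher and 2 lower after the second dose, 2 higher with carboplatin in LPS-primed BMDMs, and 10 with a higher and 9 with a lower second response (17.2% and 19% of all tested genes), where the pairing criterion was not met over the 4 groups. The block lost no call of the fit without it. DESeq2 called 7 higher after the second dose and 1 higher with carboplatin in LPS-primed BMDMs. Scaling by library size alone gave 8 higher and 16 lower after the single dose (16.3% and 41% of all tested genes), 3 higher and 1 lower after the second (2.62% and 4.21%) and 7 with a higher and 5 with a lower second response (16.5% and 9.54%). It moved the median of all genes from -0.0236 to -0.261 with priming, from -0.0944 to -0.431 after the single dose, from -0.0135 to -0.112 after the second, and from 0.0619 to 0.3 for the second minus the first response, and it reversed no called member. The AP-1 letters were in 6 members where the antioxidant response element core was in 11.

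Leaving out each sample in turn gave 14 to 15 higher and 3 to 5 lower members with priming, 11 higher and 5 to 10 lower after the single dose, 12 to 14 higher and 5 to 7 lower in LPS-tolerant against single LPS BMDMs, 3 to 6 higher and 0 to 1 lower after the second dose, 2 to 6 with a higher and 6 to 7 with a lower second response, and 0 with carboplatin. Maff and Slc7a11 in unstimulated BMDMs rested on 3 to 6 reads per sample, and Nqo1 on 19 to 80 reads in all samples.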
